A study of Mus musculus with 2 samples.

Results

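The Cyp2d family comprises cytochrome P450 genes whose symbol is Cyp2d followed by a number. By this rule, which uses no measured value, 8 of the 43280 counted gene symbols were members: Cyp2d9, Cyp2d10, Cyp2d11, Cyp2d12, Cyp2d22, Cyp2d26, Cyp2d34 and Cyp2d40. Expression was measured by RNA-seq of poly(A) RNA on an Ion Proton system in 1 library of mature hepatocytes (MHs) and 1 library of small hepatocytes (SHs) of C57BL6 mice that had been obtained from the same mice by collagenase perfusion. The labels give an age of 20 weeks, whereas the methods give a younger age for the mice of the study. Both kinds of cells were cleared of dead cells with Percoll. MHs were not sorted further, whereas SHs, described as intrinsic progenitors of hepatocytes, were sorted by FACS as cells without CD31, CD45 and EpCAM and with ICAM-1. The methods name several mice, but there was 1 library of each kind of cells, so neither group had a replicate and the groups could not be tested against each other.

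P450 enzymes are heme proteins of the endoplasmic reticulum that oxidize drugs, steroids and other small molecules with electrons passed on by P450 oxidoreductase. The Cyp2d subfamily is best known for its human member, CYP2D6, which metabolizes many common drugs. In the mouse, the subfamily has expanded by duplication into a cluster of genes and pseudogenes, and the liver is its main site of expression. Cyp2d9 encodes a steroid 16-alpha-hydroxylase that acts on testosterone and is known for higher expression in males under the control of growth hormone. Cyp2d22 is often regarded as the mouse gene closest in function to CYP2D6.

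All members lie within 424 kb on chromosome 15 of mm10, from 82370527 to 82794294, according to the GENCODE M21 annotation. Cyp2d22 (82370527 to 82380260) forms one end of the cluster and Cyp2d26 (82790101 to 82794294) the other. Between them lie Cyp2d11 (82389154 to 82394022), Cyp2d10 (82402846 to 82407195), Cyp2d9 (82433437 to 82456845), Cyp2d12 (82555072 to 82560403), Cyp2d34 (82615965 to 82620946) and Cyp2d40 (82759833 to 82764183), in that order. Cyp2d9 and Cyp2d12 are on the plus strand and the other 6 members on the minus strand. Of the 39 genes annotated in this span, 19 are pseudogenes.

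How alike the members are bears on how far their reads can be told apart. The coding sequences of Cyp2d9, Cyp2d10, Cyp2d11 and Cyp2d12 were between 90.7% and 94.7% identical to each other. Cyp2d26 was 81.9% identical to Cyp2d9, and Cyp2d22 was the most distant member, with 78.6%. The following 60 bases of coding sequence hold the codons of the loop around the cysteine that binds the heme iron, and are shown because they are nearly the same in Cyp2d9, Cyp2d22 and Cyp2d26 although these genes differ elsewhere. They were taken from the GENCODE transcripts, 5′ to 3′ on the coding strand, and capitals mark bases that differ from Cyp2d9. The stretch crosses an intron, in Cyp2d9 between exons 8 and 9 (chr15:82456451-82456610 from first to last base), in Cyp2d22 between exons 9 and 10 (chr15:82371691-82371846) and in Cyp2d26 between exons 8 and 9 (chr15:82790321-82790480).
Cyp2d9: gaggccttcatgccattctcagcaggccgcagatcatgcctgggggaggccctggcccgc
Cyp2d10: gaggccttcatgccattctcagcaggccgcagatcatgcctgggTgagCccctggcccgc
Cyp2d11: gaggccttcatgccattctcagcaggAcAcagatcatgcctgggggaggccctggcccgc
Cyp2d12: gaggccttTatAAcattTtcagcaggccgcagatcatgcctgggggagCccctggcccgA
Cyp2d22: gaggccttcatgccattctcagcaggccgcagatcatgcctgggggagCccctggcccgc
Cyp2d26: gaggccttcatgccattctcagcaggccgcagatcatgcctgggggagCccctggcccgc
Cyp2d34: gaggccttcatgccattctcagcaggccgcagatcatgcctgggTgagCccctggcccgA
Cyp2d40: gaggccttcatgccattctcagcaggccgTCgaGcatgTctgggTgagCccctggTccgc
Cyp2d22 and Cyp2d26 each differed from Cyp2d9 at 1 of these 60 bases, Cyp2d10 and Cyp2d11 at 2, Cyp2d34 at 3, Cyp2d12 at 6 and Cyp2d40 at 7.

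Promoter sequences from RefSeq were matched by symbol for 5 of the 8 members, Cyp2d9, Cyp2d10, Cyp2d11, Cyp2d26 and Cyp2d40, and cover 250 bases before and 50 after the annotated start in GRCm38.p6. Those of Cyp2d9 (chr15:82452127-82452426, plus strand), Cyp2d10 (chr15:82407145-82407444, minus strand) and Cyp2d26 (chr15:82794196-82794495, minus strand) are shown, as the 3 members with the most reads, of which the first 2 were lower in SHs and Cyp2d26 was not. Capitals mark matches of TTTATAAGG.
Cyp2d9: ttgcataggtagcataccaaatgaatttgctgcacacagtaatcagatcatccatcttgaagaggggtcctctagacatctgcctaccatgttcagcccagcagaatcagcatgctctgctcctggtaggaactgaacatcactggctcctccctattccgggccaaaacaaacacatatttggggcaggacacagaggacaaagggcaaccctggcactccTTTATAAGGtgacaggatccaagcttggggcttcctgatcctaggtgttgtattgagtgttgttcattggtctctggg
Cyp2d10: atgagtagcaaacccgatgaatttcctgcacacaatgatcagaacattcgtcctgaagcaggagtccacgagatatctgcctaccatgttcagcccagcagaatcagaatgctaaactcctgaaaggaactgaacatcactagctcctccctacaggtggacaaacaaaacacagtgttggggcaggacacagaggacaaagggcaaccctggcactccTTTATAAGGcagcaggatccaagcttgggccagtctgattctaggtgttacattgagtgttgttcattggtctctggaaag
Cyp2d26: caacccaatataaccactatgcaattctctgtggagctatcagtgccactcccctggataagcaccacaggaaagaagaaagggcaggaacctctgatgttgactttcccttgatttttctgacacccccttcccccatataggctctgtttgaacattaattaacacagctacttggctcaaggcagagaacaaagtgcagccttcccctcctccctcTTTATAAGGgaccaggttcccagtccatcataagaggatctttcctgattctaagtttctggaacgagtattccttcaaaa
The window of Cyp2d9 was 84.8% identical to that of Cyp2d10 and 94.01% identical to that of Cyp2d11, but 65.3% identical to that of Cyp2d26. TTTATAAGG was in all 5 windows. It was chosen after the windows had been looked at, and it was on either strand of 0.280% of the 32851 promoter windows of the table. TATAAA, which overlaps TTTATAAGG, was in all 5 windows and in 13.6% of all windows. The letters TTCNNNGAA (8.30% of all windows), CAAAGTCCA (0.475%) and CCGGAAG (8.86%) were searched as well, on both strands, and were in none of the 5.

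Levels are given as RPM, the reads of a gene per 1000000 reads counted in its library. In all, 16979136 reads were counted in MHs and 42356444 in SHs, so a count of 0 allowed a level of up to 3 reads, 0.177 RPM in MHs and 0.0708 RPM in SHs. Log2 ratios are SHs over MHs, with 0.5 reads added to both counts, and each has a 95% Clopper-Pearson interval from the split of the gene's reads between the libraries. The reads carried no molecular identifiers, and all intervals cover counting error only. Both libraries held the hepatocyte markers Alb, Apoa1, Ttr, Hnf4a, Cps1, Tdo2, Serpina1c and Tat, 78928 RPM in all in MHs and 83858 in SHs.

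The Cyp2d family was expressed strongly in both kinds of hepatocytes and was somewhat lower in SHs. The 8 members together had 56021 reads in MHs and 121024 in SHs, which were 3299 RPM (95% Poisson interval 3272 to 3327) and 2857 RPM (2841 to 2873). The sum in SHs was 86.6% of that in MHs, a log2 ratio of -0.21 (-0.22 to -0.19). Without Cyp2d9, the member with the most reads, the log2 ratio of the sum was -0.14 (-0.15 to -0.12). In bulk RNA, fewer cells that express a gene and less RNA per cell cannot be told apart. The family took 17.9% of all reads on P450 genes in MHs and 20.6% in SHs.

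The members did not move together. Cyp2d9, Cyp2d10, Cyp2d11 and Cyp2d40 were lower in SHs, whereas Cyp2d26 and Cyp2d22, at the ends of the cluster, were at nearly equal levels in both libraries. All 8 members had at least 10 reads. The interval lay wholly under 0 for 4 of them, against 15.5% of the 15521 genes with at least 10 reads, and wholly above 0 for 1, Cyp2d22, against 16.8% of those genes. Among the 6 members with at least 1000 reads, 4 had an interval under 0 and 1 above 0, against 21.1% and 31.2% of the 5055 genes at that depth. None of the 8 differed by 2-fold or more between the libraries. Such a difference was rare among all genes too, with 5.97% lower and 4.14% higher in SHs of the 15521 genes and 0.613% lower and 0.218% higher of the 5055. With at least 10 reads, the median log2 ratio was -0.30 over the 8 members, 0.02 over the 15521 genes and -0.45 over 62 P450 genes outside the family. With at least 1000 reads, it was -0.30 over 6 members, 0.04 over the 5055 genes and -0.34 over 32 P450 genes outside the family.

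**Figure D1:**
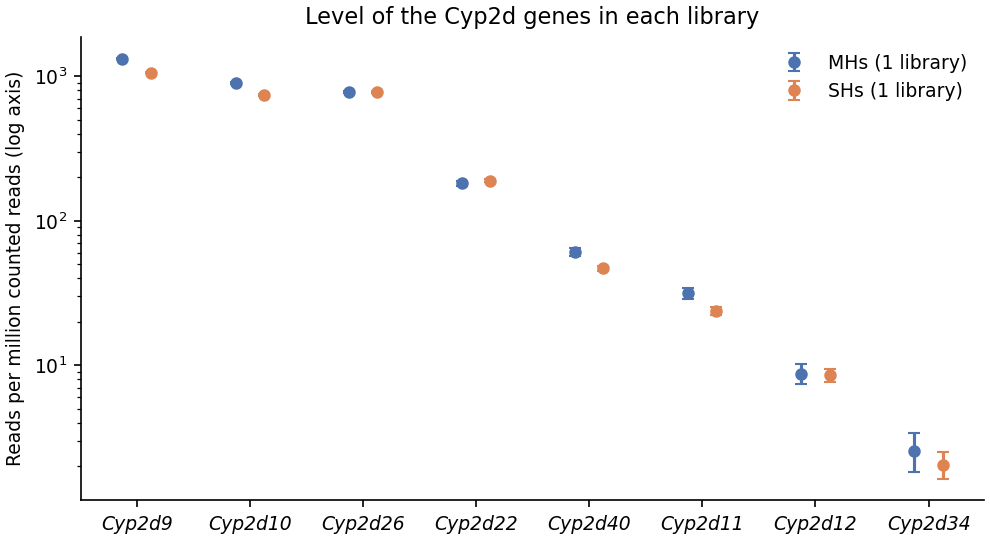
Reads per 1000000 counted reads of each Cyp2d gene (log axis) in the library of MHs and the library of SHs, with 95% Poisson intervals that cover counting error only. Levels span from 1329 RPM for Cyp2d9 to 2.53 RPM for Cyp2d34 in MHs, and the symbols of Cyp2d26, Cyp2d22 and Cyp2d12 lie at nearly the same height in both libraries.

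Cyp2d9, the steroid hydroxylase with male-biased expression, had the most reads of the family, 22558 in MHs and 45023 in SHs. Its level was 1329 RPM in MHs and 1063 in SHs, for a ratio of -0.32 on the log2 scale (-0.34 to -0.30). By reads in MHs, Cyp2d9 was number 4 among the P450 genes.
Cyp2d10, a close paralog of Cyp2d9, had 15393 reads in MHs and 31535 in SHs. Its level was 907 RPM in MHs and 744.5 in SHs, for a ratio of -0.28 on the log2 scale (-0.31 to -0.26). In both of these genes, the level in SHs was near 80% of that in MHs, at 80.0% for Cyp2d9 and 82.1% for Cyp2d10.
Cyp2d11 and Cyp2d40 were lower by a like proportion at a far lower level. Cyp2d11, which lies next to Cyp2d10, had 536 reads (31.6 RPM) in MHs and 999 (23.6 RPM) in SHs, for a ratio of -0.42 on the log2 scale (-0.57 to -0.27). Cyp2d40, near the other end of the cluster, had 1035 reads (61.0 RPM) in MHs and 1983 (46.8 RPM) in SHs, for a ratio of -0.38 on the log2 scale (-0.49 to -0.27). Summed over these 4 members, the level was 2328 RPM in MHs and 1878 RPM in SHs, for a ratio of -0.31 on the log2 scale (-0.33 to -0.29). The 4 were grouped because their own intervals lay under 0, so a summed ratio under 0 was fixed by that choice.

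Cyp2d26 had 13219 reads in MHs and 33003 in SHs. These were 779 RPM in both libraries, a log2 ratio of 0.0011 (-0.03 to 0.03). In SHs, Cyp2d26 thus had more reads than Cyp2d10, whereas in MHs it had fewer. Cyp2d22, named above as the gene closest in function to CYP2D6, had 3089 reads in MHs and 8035 in SHs, or 182 and 190 RPM. Its log2 ratio was 0.060, and the lower bound of the interval, 0.00029 to 0.12, was almost at 0. When reads of SHs were drawn down to as many as in MHs, the interval of Cyp2d22 included 0 (-0.0027 to 0.14). Cyp2d26 and Cyp2d22 together had 960.5 RPM in MHs and 969 in SHs.

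Cyp2d12 and Cyp2d34 had few reads and wide intervals. Cyp2d12 had 148 reads (8.72 RPM) in MHs and 360 (8.50 RPM) in SHs, for a ratio of -0.04 on the log2 scale (-0.32 to 0.25). Cyp2d34 had 43 reads (2.53 RPM) in MHs and 86 (2.03 RPM) in SHs, for a ratio of -0.33 on the log2 scale (-0.86 to 0.24). Cyp2d12 lay 0.28 above Cyp2d9 in log2 ratio, with an interval of 0.0058 to 0.56. For Cyp2d34 the difference from Cyp2d9 was -0.0053 (-0.53 to 0.52), so at this depth it could not be told apart from Cyp2d9 or from a ratio of 0.

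**Figure D2:**
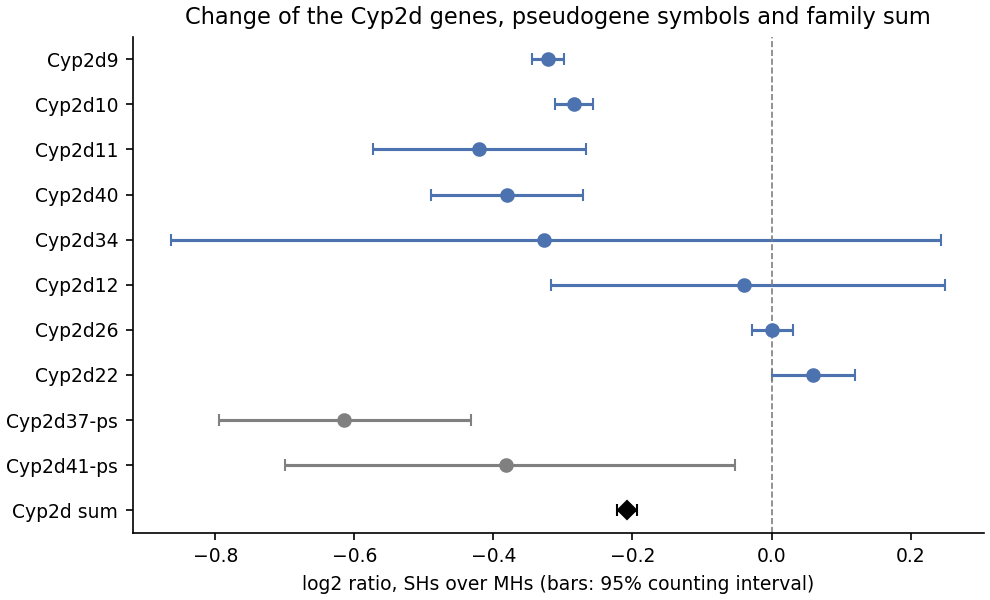
Log2 ratio of SHs over MHs for each Cyp2d gene (blue), for the counted Cyp2d pseudogene symbols (grey) and for the sum of the 8 genes (black), with 95% Clopper-Pearson intervals for counting error. The intervals of Cyp2d9, Cyp2d10, Cyp2d11 and Cyp2d40 lie left of 0, that of Cyp2d26 spans 0 closely, and those of Cyp2d34 and Cyp2d12 are wide.

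A comparison between members needs no scaling between the libraries, as the library totals cancel. Against the summed other members, the log2 ratio of Cyp2d26 was higher by 0.28 (95% interval 0.25 to 0.31, counting error only) and that of Cyp2d22 by 0.29 (0.22 to 0.35). Cyp2d9 differed from its summed relatives by -0.19 (-0.22 to -0.16), Cyp2d10 by -0.10 (-0.14 to -0.07), Cyp2d11 by -0.22 (-0.37 to -0.06) and Cyp2d40 by -0.18 (-0.29 to -0.07). The value of Cyp2d10 was -0.26 (-0.30 to -0.23) when Cyp2d9 was left out of the sum. For Cyp2d12 and Cyp2d34 the differences, 0.17 and -0.12, had intervals that included 0.
Of the 28 pairs of members, 12 had a difference in log2 ratio whose interval excluded 0, without adjustment for the number of pairs. These included all 8 pairs of Cyp2d22 or Cyp2d26 with Cyp2d9, Cyp2d10, Cyp2d11 or Cyp2d40. The sides of these 8 pairs were set by the log2 ratios of the same counts, so their number is no separate evidence of a split. Cyp2d26 was 0.32 (0.29 to 0.36) above Cyp2d9 on the log2 scale. Cyp2d22 and Cyp2d26 differed by 0.06, with an interval of -0.0075 to 0.13 that included 0. Cyp2d10 lay 0.038 above Cyp2d9, and the interval of this small difference, 0.0015 to 0.074, excluded 0.

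As a result, the makeup of the family differed between the libraries. Cyp2d9 held 40.3% of the Cyp2d reads in MHs (exact binomial interval 39.9% to 40.7%) and 37.2% in SHs (36.9% to 37.5%). The share of Cyp2d10 was 27.5% in MHs and 26.1% in SHs. Cyp2d26 went the other way, with 23.6% (23.2% to 24.0%) in MHs and 27.3% (27.0% to 27.5%) in SHs, and Cyp2d22 with 5.51% in MHs and 6.64% in SHs. Cyp2d9, Cyp2d10 and Cyp2d26 together held 91.3% of the reads of the family in MHs and 90.5% in SHs.

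Levels of different genes can be compared only per length. Per kilobase of the longest protein-coding transcript, the level in MHs was 776 RPM for Cyp2d9, 550.1 for Cyp2d10 and 458 for Cyp2d26. In SHs these levels were 621 (95% Poisson interval 615 to 627), 452 (447 to 457) and 458 (453 to 463) RPM per kilobase, so that Cyp2d10 and Cyp2d26 did not differ beyond their intervals. Then followed Cyp2d22 with 65.7 RPM per kilobase in MHs, Cyp2d40 with 52.4, Cyp2d11 with 19.9, Cyp2d12 with 5.27 and Cyp2d34 with 1.53, an order that was the same in SHs. The order at the top depended on the length used. Per kilobase of all annotated exons, which for Cyp2d9 include exons far upstream of its RefSeq start, Cyp2d10 was first in both libraries, with 550.1 RPM in MHs and 452 in SHs, and Cyp2d9 had 499.8 and 399.9. In SHs Cyp2d9 then came after Cyp2d26, which had 435 RPM per kilobase of exons.

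The place of a gene in the cluster went with its ratio only in part. Cyp2d22 and Cyp2d26, with log2 ratios of 0.060 and 0.0011, form the outer ends, but Cyp2d12, with -0.04 and a wide interval, lies within the cluster. Next to Cyp2d22 and Cyp2d26 lie members that were lower in SHs, Cyp2d11 and Cyp2d40. Of the genes annotated in the span, 20 symbols were counted and 11 of these had at least 10 reads, the 8 members and 3 others. Cyp2d37-ps, a transcribed pseudogene, had 408 reads in MHs and 665 in SHs, for a ratio of -0.61 on the log2 scale (-0.79 to -0.43), lower than that of Cyp2d9 by 0.29 on the log2 scale (-0.47 to -0.11 as a difference). Cyp2d41-ps had 123 reads in MHs and 236 in SHs, for a ratio of -0.38 on the log2 scale (-0.70 to -0.05). Gm27463, annotated as a miRNA gene between Cyp2d34 and Cyp2d35-ps, had 150 and 306 reads, a log2 ratio of -0.29 (-0.58 to 0.0014). The protein-coding genes that flank the cluster were not lower in SHs. Ndufa6, a subunit of respiratory complex I beside Cyp2d22, had 2016 and 4967 reads, a log2 ratio of -0.02 (-0.09 to 0.06). Tcf20, the next protein-coding gene beyond Cyp2d26, had 1015 and 2875 reads, a log2 ratio of 0.18 (0.08 to 0.29).

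**Figure D3:**
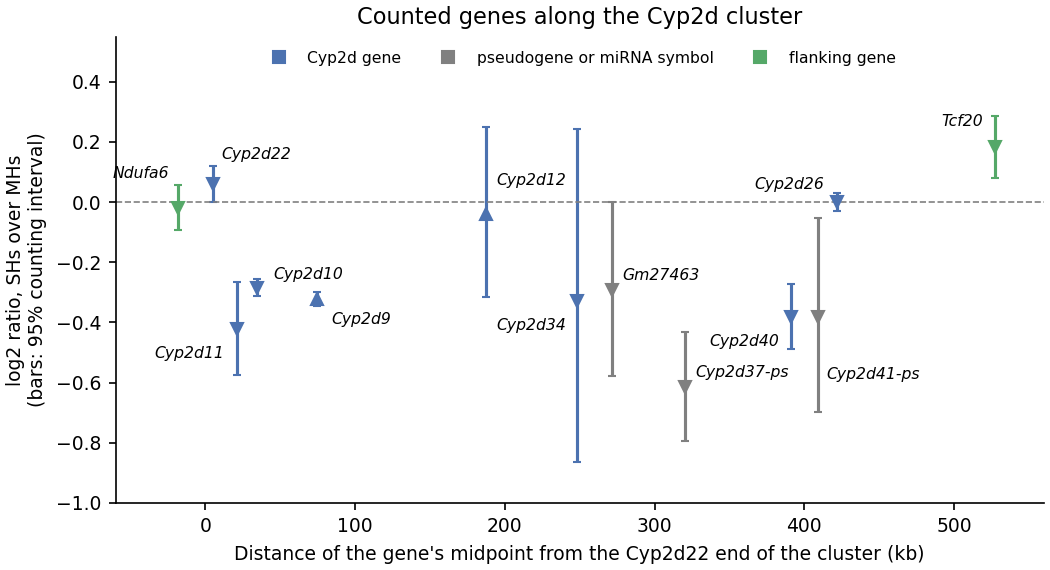
Log2 ratio of SHs over MHs, with 95% counting intervals, against the distance of each counted gene's midpoint from the Cyp2d22 end of the cluster in kb, for genes with at least 10 reads. Triangles that point up are genes on the plus strand and those that point down genes on the minus strand. The outermost members and the flanking genes lie near or above 0, and 4 of the 6 inner members have intervals under 0.

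Reads of near-identical paralogs could have been divided between them in ways the counts do not show. For each member, windows of 100 bases of its longest protein-coding transcript were compared with the annotated transcripts of all other Cyp2d symbols. With up to 2 mismatches allowed, 42.2% of the windows of Cyp2d10, 39.0% of those of Cyp2d11 and 32.7% of those of Cyp2d9 were found in another Cyp2d transcript. Transcripts of Cyp2d11 held 32.9% of the windows of Cyp2d10, and those of Cyp2d10 held 34.1% of the windows of Cyp2d11. The share was 16.3% for Cyp2d40, 13.0045% for Cyp2d34 and 9.58% for Cyp2d12. It was 6.996% for Cyp2d26 and 4.49% for Cyp2d22. Without mismatches the order differed, with 14.8% for Cyp2d10, 12.2% for Cyp2d11, 9.86% for Cyp2d9 and 3.79% for Cyp2d12. The others had 0.375% (Cyp2d26), 0.225% (Cyp2d22), 0.128% (Cyp2d34) and 0% (Cyp2d40). The shares depended on the window length. In windows of 50 bases without mismatches, Cyp2d40 had 24.1%, Cyp2d9 28.3% and Cyp2d26 10.5%. With up to 2 mismatches in 50 bases, the shares were 78.1% for Cyp2d11, 66.9% for Cyp2d10, 62.5% for Cyp2d9 and 57.9% for Cyp2d40. They were 44.5% for Cyp2d12, 41.4% for Cyp2d34, 18.3% for Cyp2d26 and 13.5% for Cyp2d22. The read length is not given in the sources used here, and the part of shared reads in the ratios of Cyp2d9, Cyp2d10, Cyp2d11 and Cyp2d40 was not tested. The sum over the family does not depend on how reads were divided among its members. Reads shared with pseudogenes, or left uncounted because they match several genes, could still change it. With the counted Cyp2d pseudogene symbols added, the log2 ratio of the sum was -0.21 (-0.22 to -0.20).

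**Figure D4:**
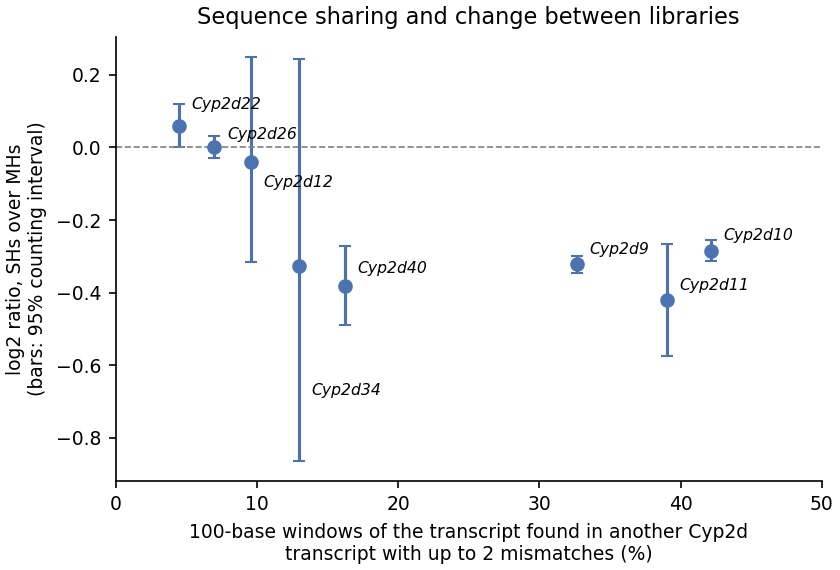
Log2 ratio of SHs over MHs of each Cyp2d gene, with 95% counting intervals, against the percentage of 100-base windows of its longest protein-coding transcript that occur with up to 2 mismatches in a transcript of another Cyp2d symbol. The members that share 16.3% or more of their windows are those with intervals under 0, but this limit is the share of Cyp2d40 itself. Cyp2d34, with 13.0045%, has a log2 ratio of -0.33, near the -0.32 of Cyp2d9, and an interval (-0.86 to 0.24) too wide to place it. The same members have the highest shares in windows of 50 bases, but not in 100-base windows without mismatches, where Cyp2d40 has 0%.

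Cyp2d differed less between the libraries than Cyp3a and Cyp2c, other P450 subfamilies with many reads. The summed log2 ratio was -0.40 for the 9 Cyp3a genes (4509 RPM in MHs and 3420 in SHs) and -0.84 for the 15 Cyp2c genes (2172 and 1209). The log2 ratio of the Cyp2d sum lay 0.64 (0.61 to 0.66) above that of the 15 Cyp2c genes and 0.19 (0.17 to 0.21) above that of the 9 Cyp3a genes. The difference from Cyp3a rested on the leading genes. Without Cyp2d9 and Cyp3a11 it was 0.030, and its interval of -0.0030 to 0.064 included 0. Of the 32 P450 genes outside the family with at least 1000 reads, the 5 with log2 ratios nearest to that of the Cyp2d sum were Cyp2j6 (-0.21), Cyp8b1 (-0.20), which encodes the sterol 12-alpha-hydroxylase of bile acid synthesis, Cyp3a59 (-0.24), Cyp3a25 (-0.15) and Cyp3a13 (-0.12). With 1 library per group, this likeness is one of a single ratio.

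Genes that supply P450 enzymes with electrons or heme did not move as a group. Of 7 genes, 3 had intervals under 0 (21.1% of all genes with at least 1000 reads), 1 had an interval above 0 (31.2%) and 3 had intervals that included 0. The median log2 ratio was -0.02, against 0.04 over all genes with at least 1000 reads. For the group it was 0.01 when the 10 genes with the most reads were left out of the library totals. Por, the oxidoreductase that passes electrons to all microsomal P450s, was lower in SHs, with 2999 and 5737 reads and a log2 ratio of -0.38 (-0.45 to -0.32). Cyb5a, cytochrome b5, had a log2 ratio of -0.30 (-0.34 to -0.26), and Pgrmc1, a heme-binding membrane protein, one of -0.08 (-0.11 to -0.05). Cyb5r3, the reductase of cytochrome b5, was higher, at 0.31 (0.26 to 0.36). Alas1, the first enzyme of heme synthesis, had 0.02 (-0.01 to 0.06), Fech, the last, had 0.06 (-0.02 to 0.14), and Cyb5b had -0.02 (-0.06 to 0.03).

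Of 18 regulators linked to P450 expression in liver, 17 had at least 10 reads. The interval was under 0 for 3, above 0 for 6 and included 0 for 8, and the median log2 ratio was 0.01. These counts are near the shares over all genes, 15.5% under and 16.8% above 0 with at least 10 reads and 21.1% and 31.2% with at least 1000. Nr1i3, the xenobiotic receptor CAR, stood apart with 679 reads in MHs and 645 in SHs, for a ratio of -1.39 on the log2 scale (-1.55 to -1.24). Nr1i2, the receptor PXR, was higher, at 0.18 (0.07 to 0.30). Hnf4a, a main regulator of hepatocyte genes, had 0.04 (0.0030 to 0.07). For the growth hormone pathway, which sets sex-biased expression in liver, the receptor Ghr had -0.06 (-0.10 to -0.02), Stat5b had 0.11 (0.02 to 0.20), and Stat5a had -0.12 with an interval of -0.31 to 0.07. Onecut1 had -0.19 (-0.36 to -0.0065), and its interval included 0 under TMM and DESeq2 scaling, which shifted all log2 ratios by 0.0096 and 0.0091. When the 10 genes with the most reads were left out of the library totals, a shift of 0.032, the intervals of Onecut1 and Ghr included 0 and those of Alas1 and Fech lay above 0. Cebpa (0.21), Rxra (0.19) and Gabpa (0.21) had intervals above 0. The intervals of Foxa1, Foxa2, Nr0b2, Nr1h4, Bcl6 and Rsl1 included 0, and Cux2 had 2 reads in MHs and 7 in SHs.

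Of 15 male-biased liver genes outside the family, 10 had intervals under 0, 3 above 0 and 2 with 0 included, and the median log2 ratio was -0.31. Over all genes with at least 1000 reads, 21.1% had intervals under 0 and 31.2% above 0, with a median of 0.04. Cyp4a12a, which encodes a fatty acid hydroxylase, had a log2 ratio of -0.37 (-0.43 to -0.31), and Cyp4a12b one of -0.31 (-0.41 to -0.21). Hsd3b5, a steroid dehydrogenase, had -0.64 (-0.70 to -0.58), Elovl3, a fatty acid elongase, -0.54 (-0.58 to -0.50), Slco1a1, an organic anion transporter, -0.55 (-0.61 to -0.50) and Cyp7b1, an oxysterol hydroxylase, -0.43 (-0.48 to -0.38). Mup7 had -0.85 (-0.87 to -0.84), C4a -0.30 (-0.37 to -0.22) and Nudt7 -0.08 (-0.11 to -0.04), and the lowest was Moxd1 at -1.57 (-1.66 to -1.47). The pheromone-binding Mup20 (0.13), Mup21 (0.13) and the glutathione transferase Gstp1 (0.36) were higher in SHs. The intervals of Ugt2b38 and Cspg5 included 0.
Female-biased genes were at low levels in both libraries, 58.8 RPM in all in MHs and 42.1 in SHs. The paper names male and female mice for the study as a whole, and these levels were not used to assign a sex to either library. Of 16, 8 had at least 10 reads. Of these 8, 5 had intervals under 0 and none above 0, against 15.5% and 16.8% of all genes with at least 10 reads. The median log2 ratio over these 8 genes was -0.53, against 0.02 over all genes with at least 10 reads. Cyp3a41a had 253 and 407 reads, Cyp3a41b 223 and 413, Cyp3a44 240 and 459, Cyp2a4 55 and 28 and Cyp2b9 33 and 22, in MHs and SHs. The intervals of Cyp3a16, Cyp17a1 and Acot3 included 0. Sult2a1, Sult3a1 and Hao2 had no read in either library, which allows up to 0.177 RPM in MHs and 0.0708 in SHs, and Cyp2b13, A1bg, Atp6v0d2 and Prom1 had fewer than 10 over both. Cyp2b and Cyp3a genes also have close paralogs.

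Markers of the liver zones and of several other cell types differed between the libraries as well. All 13 markers of ZONE3, the region around the central vein, had intervals under 0, with a median of -1.78 on the log2 scale, the lowest at -4.23 (Slc1a2) and the highest at -1.08 (Axin2). All 11 markers of ZONE1, the portal region, had intervals above 0, with a median of 0.43. The lowest was at 0.02 (Cps1) and the highest at 1.29 (Aldh1b1). Over all genes with at least 10 reads, 15.5% had intervals under 0 and 16.8% above 0. Among those with at least 1000 reads, the shares were 21.1% and 31.2%. The log2 ratios of the Cyp2d members ran from -0.42 to 0.060. The summed level of 10 endothelial markers was 82.2 RPM in MHs and 4.51 in SHs, that of 7 macrophage and immune markers 15.8 and 0.472, that of 9 stellate cell markers 20.2 and 2.34 and that of 6 cholangiocyte markers 13.96 and 14.1. Lyve1, Marco and Cftr had no read in SHs. Of the 6 cholangiocyte markers, Sox9 and Spp1 alone had at least 10 reads. Their log2 ratios went opposite ways, at 0.50 (0.16 to 0.85) for Sox9 and -0.33 (-0.63 to -0.02) for Spp1. The median log2 ratio was -4.74 over 10 endothelial markers, -5.08 over 6 macrophage and immune markers, -2.79 over 7 stellate markers (-4.60 over those with at least 100 reads) and 0.08 over 2 cholangiocyte markers, all with at least 10 reads. The part of the zones and of other cell types in the Cyp2d ratios was not tested.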

How the data were processed

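The deposited files hold unnormalized read counts by gene symbol, for 1 library of MHs and 1 of SHs. The methods describe trimming, alignment in CLC Genomics Workbench to mm10 with a limit on hits per read, and RPKM. The program and annotation behind the whole counts are not given in the sources used here, nor how reads that match several paralogs were counted. The members and gene lists were chosen with earlier results of these data known. RPM, log2 ratios with 0.5 added reads and Clopper-Pearson, Poisson and Woolf intervals were computed with scipy 1.17.1, pandas 2.3.3 and numpy 2.4.6 under Python 3.11.15. Simulated counts with known folds were used to test the code. With 1 library per group, no p-value was computed. Named genes were all Cyp2d symbols, the other counted genes of the cluster with at least 10 reads and its flanking protein-coding genes. Also named were the 5 P450 genes nearest in ratio, the members of the pathway lists and the hepatocyte markers. Of the ZONE lists, the genes with the lowest and highest ratios were named. Markers at 0, Sox9 and Spp1 were named after their values were seen. Some members of the lists and 1 searched motif are not reported here by name, and the list counts include them. Coordinates and transcripts came from GENCODE M21 (mm10) and promoters from RefSeq (GRCm38.p6). Sequences were aligned with biopython 1.88. Alternatives used edgeR 4.0.16 (TMM) and DESeq2 1.42.0 (size factors) in R 4.3.3.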

Additional observations from a re-analysis of the deposited data

How the results depend on the processing

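No paired analysis was possible because each group had a single library.

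TMM, DESeq2's size factors, 2 added reads and the thinned library of SHs left all 8 member ratios within their intervals. Leaving the 10 genes with the most reads out of the library totals shifted every ratio by 0.032 and put 3 of the 8 outside. Under it the log2 ratio of the Cyp2d sum was -0.18, 2 members instead of 1 had an interval above 0, and the ZONE1 median was 0.46. The added member was Cyp2d26, at 0.033 (0.0035 to 0.062). The number of members with an interval under 0 was 4 under every scaling and read minimum tried. The median of the P450 partners changed from -0.02 to 0.01 when the 10 genes with the most reads were left out. With a minimum of 100 reads, the stellate median was -4.60 and the female-biased median -0.38, over fewer genes. With SHs thinned, the interval of Cyp2d22 included 0.

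The log2 ratio of the sum was -0.14 without Cyp2d9, -0.18 without Cyp2d10, -0.22 without Cyp2d22 and -0.28 without Cyp2d26. With Cyp2d9 left out of the other members, the difference was -0.26 for Cyp2d10, 0.22 for Cyp2d22 and 0.23 for Cyp2d26. Without the leading gene of each family, the Cyp2d ratio lay 0.030 above Cyp3a and 0.89 above Cyp2c.

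Divided by exon length, the share of Cyp2d9 was 31.5% in MHs and 29.0% in SHs, that of Cyp2d10 34.6% and 32.8%, and that of Cyp2d26 27.4% and 31.5%. Divided by transcript length, which was added once the data had been seen, the share of Cyp2d10 was 28.5% in MHs and 27.2% in SHs, and that of Cyp2d26 in SHs 27.6%. With the pseudogene symbols in the total, the share of Cyp2d9 in SHs was 36.9%. The cause of these shifts is the change in the genes or lengths used. Depth limits Cyp2d12 and Cyp2d34.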
